A study of Mus musculus with 6 samples.

Results

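The genes described are the 10 that encode the MCM helicase and the factors that license replication origins: Mcm2, Mcm3, Mcm4, Mcm5, Mcm6, Mcm7, Mcm10, Cdc6, Cdt1, and Gmnn. They were chosen by name, and each was found as 1 row among the 57126 genes of the deposited table after the version was removed from its Ensembl identifier. RNA was sequenced from 6 samples of CD8+ T cells taken from the lymph nodes and spleens of OT-I mice, whose transgenic T cell receptor recognizes an ovalbumin peptide. The cells were stimulated with nano-aAPCs, artificial antigen-presenting particles, and harvested on day 6. The 3 TEff samples were expanded with IL-2 alone, and the 3 TRM-like samples with IL-2, mouse IL-15, and mouse TGF-β, so that IL-2, the particles, and the transgenic receptor were common to both groups. The study's methods give this IL-2 as mouse for the sequenced cells and as human for the general expansion. The labels give no age or sex and do not say whether replicates came from separate mice or cultures, so the p-values measure the spread between these samples, which may be technical.

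Before a cell copies its DNA, the origin recognition complex, CDC6, and CDT1 load rings of the 6 proteins MCM2 to MCM7 onto each origin, a step called licensing. The loaded rings become the helicase that unwinds DNA in S phase, with the help of MCM10, while geminin, the product of Gmnn, binds CDT1 and prevents another round of loading. Transcription of these genes is known to be driven by E2F factors in cells that enter the cycle, and T cells that leave quiescence after antigen stimulation accumulate the MCM proteins.

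All 10 genes were expressed in the 6 samples, and the TRM-like samples disagreed with each other. TRM-like replicates 1 and 2 had the 2 lowest levels of the 6 samples for 10 of the 10 genes. Both lay below every TEff sample, a looser condition that sets replicate 3 aside, in 23.4% of all genes tested. TRM-like replicate 3 had the highest level for 9 of the 10, as in 19.4% of all genes. With the 6 samples together, edgeR called 0 of the 10 genes different between the groups, against 3.01% of all genes. The levels of TRM-like replicate 3 exceeded those of replicate 1 by 1.44-fold for Cdt1 and by 2.23- to 3.54-fold for the others, and Cdt1 was the member that varied least among the samples.

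Libraries of total RNA gave between 18319013 and 23622621 reads counted on genes per sample, and the counts behind single values of the 10 genes ran from 459 to 11138. TRM-like replicates 1 and 2 also stood apart in the number of genes with at least 1 count, 35130 and 35559 against 24229 to 24908 in the other 4 samples. A chi-square of the counts of each pair of samples, averaged over genes that reached 10 counts in each of the 6 libraries and near 1 where counting noise alone separates the pair, was 7.26 between TRM-like replicates 1 and 2, 96.3 and 112 between these and replicate 3, and 41.9, 82.4, and 37.4 between replicate 3 and TEff replicates 1, 2, and 3. Between TEff samples this value was 3.73 for replicates 1 and 3, 26.1 for 1 and 2, and 25.4 for 2 and 3. The 6 CD8 T cell markers were detected in every sample and summed to 1927 to 2052 CPM, counts scaled to a library of fixed size, in TEff and 2449 to 3419 CPM in TRM-like samples. Itgae and Cdh1, residency markers, summed to 20.7 to 30.7 CPM in TEff samples and to 780, 806, and 350 CPM in TRM-like replicates 1, 2, and 3, so that replicate 3 was above every TEff sample and below the other TRM-like samples. Markers of other cells summed to less than the CD8 T cell markers in every sample, and 3 of these sums, for myeloid, NK, and B cells, were highest in TRM-like replicates 1 and 2. The 6 myeloid markers, of which 3 to 6 were detected, summed to 4.89 to 7.35 CPM in TEff samples and to 20.6, 22.7, and 3.55 CPM in the TRM-like samples in order, with Lyz2, Adgre1, and Itgam each at 0 in at least 1 sample. The 4 NK cell markers, of which 3 or 4 were detected, summed to 50.6 to 72.2 CPM in TEff samples and to 94.8, 86.6, and 16.9 CPM in the TRM-like samples, with Ncr1 at 0 in at least 1 sample. The 5 B cell markers, of which 2 or 3 were detected in the other 4 samples, summed to 5.94 to 6.78 CPM in TEff samples and to 9.11, 10.9, and 7.29 CPM in the TRM-like samples, where 4, 5, and 2 were detected, and Ms4a1 and Pax5 were each at 0 in at least 1 sample. The CD4 T cell and erythroid sums reached at most 1.57 and 1.13 CPM, and Hba-a1 was at 0 in every sample. Their part, and that of the number of genes detected, in the results below was not tested.

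Sequences just around the starts of these genes are shown first, because several of the members share short elements there. The window from 250 bases before to 50 bases after the canonical GENCODE start was searched on both strands for the E2F core in any of 4 spellings. These were TTCCCGC and also TTGGCGC, together with TTCGCGC and likewise TTGCCGC. At least 1 of them was present in 7 of the 10 genes, against 11.2% of the windows of 21685 protein-coding genes, and 2 or more positions were present in 6 of the 10, against 1.36%. Windows of 30 bases are given below, each read 5′ to 3′ along the strand of its gene, with the matched letters or their reverse complement in capitals and positions counted from the start. All matches of the 7 genes are shown, to compare Cdt1 with the other genes.

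Mcm3, chr1:20890488-20890517 of GRCm39, minus strand, 20 to 49 after the start: GCGGGAAaacttgggaagttTTGGCGCCAA

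Mcm4, chr16:15455469-15455498, minus strand, from -234 to -205: cggccccgggtTTCCCGCcaaaacgcaatc

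Mcm4, chr16:15455323-15455352, minus strand, from -88 to -59: gctacacgcctTTGCCGCtgtgattggccg

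Mcm5, chr8:75835969-75835998, plus strand, from -171 to -142: gctaGCGCCAAgaactTTCGCGCCAAaacg

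Mcm6, chr1:128287532-128287561, minus strand, from -109 to -80: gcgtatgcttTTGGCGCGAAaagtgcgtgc

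Mcm6, chr1:128287469-128287498, minus strand, from -46 to -17: ttggacgggtTTGGCGCGAAgtagctcagc

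Mcm6, chr1:128287403-128287432, minus strand, 21 to 50 after the start: ctagccggaggcgcGCGCGAAgtggcagcg

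Cdc6, chr11:98798425-98798454, plus strand, from -202 to -173: aaaaactacacTTCCCGCcaggctttacgg

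Cdc6, chr11:98798647-98798676, plus strand, 21 to 50 after the start: gaaggctgaagtagagcggctTTGGCGCga

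Cdt1, chr8:123294768-123294797, plus strand, 21 to 50 after the start: atccGCGGGAActacctttTTGGCGCcatg

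Gmnn, chr13:24946127-24946156, minus strand, from -250 to -221: tctcgtgtTTGCCGCtagtgagagtctctt

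Mcm6 carried the same 10 letters, TTGGCGCGAA, in its 2 windows before the start, in which TTGGCGC on the gene's strand and TTCGCGC on the other strand overlap, and a single match after the start. In Mcm5, the same letters overlapped with the strands exchanged. Mcm3 and Cdt1 shared the pair of GCGGGAA, the reverse complement of TTCCCGC, followed by TTGGCGC, in both cases within the first 50 bases after the start, where Cdc6 held TTGGCGC alone. Gmnn held 1 match at -242, and Mcm2, Mcm7, and Mcm10 held none, which says only that these letters are absent from these windows. The CCAAT letters were found in 8 of the 10 windows, against 40% of all windows, and the GC box letters GGGCGG in 6, against 42.5%. The CHR letters TTTGAA or TTCGAA, an element of genes expressed late in the cycle, were found in 1 of the 10, Mcm2, against 18.7%. E2F and CCAAT letters can overlap at TTGG, and a match is a description of letters and not of a bound site.

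The 6 subunits of the helicase ring were measured first. Levels are given as CPM scaled by the TMM method of edgeR, with the 3 TEff samples and then the 3 TRM-like samples in the order of their replicate numbers. Mcm2 (ENSMUSG00000002870, chr6:88860452-88875762, minus strand), a subunit of the gate through which the ring opens, was at 218, 130, and 200 CPM in the TEff samples and at 90.4, 78.0, and 269 CPM in the TRM-like samples. The first 2 TRM-like samples were below every TEff sample and the last was above every one, so that the groups overlapped. The difference of TRM-like from TEff was a log2 fold change of -0.33 (SE 0.43, n = 3 per group, adjusted p = 0.792 by the quasi-likelihood test of edgeR, adjusted by the Benjamini-Hochberg method over 26154 genes). Mcm5 (ENSMUSG00000005410, chr8:75836140-75856231, plus strand), the other side of that gate, was at 320, 194, and 322 CPM in TEff and at 139, 138, and 380 CPM in TRM-like samples. The lowest pair and the highest sample were the same as for Mcm2, and its log2 fold change was -0.35 (SE 0.39, edgeR adjusted p = 0.749).

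Mcm3 (ENSMUSG00000041859, chr1:20870791-20890536, minus strand) was at 300, 190, and 295 CPM in TEff and at 103, 95.1, and 363 CPM in TRM-like samples. Among the ring subunits it had the widest gap between TRM-like replicates, 3.54-fold from replicate 1 to replicate 3 and 3.81-fold from replicate 2. Its log2 fold change was -0.48 (SE 0.47, edgeR adjusted p = 0.699). Mcm4 (ENSMUSG00000022673, chr16:15440211-15455264, minus strand), Mcm6 (ENSMUSG00000026355, chr1:128259311-128287516, minus strand), and Mcm7 (ENSMUSG00000029730, chr5:138162844-138170684, minus strand) encode the subunits that unwind DNA as a purified subcomplex. Mcm4 was at 213, 143, and 205 CPM in TEff and at 92.8, 86.9, and 264 CPM in TRM-like samples. Mcm6, the most abundant of the 10 in counts, was at 452, 322, and 435 CPM in TEff and at 196, 196, and 514 CPM in TRM-like samples. Mcm7 was at 218, 132, and 219 CPM in TEff and at 97.8, 90.4, and 227 CPM in TRM-like samples. In these 3 genes too, TRM-like replicates 1 and 2 were lowest and TRM-like replicate 3 highest, though for Mcm7 the margin over TEff replicate 3 was small. Their log2 fold changes were -0.34 (SE 0.40), -0.42 (SE 0.36), and -0.45 (SE 0.35), with edgeR adjusted p of 0.759, 0.661, and 0.623.

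Of the loading factors, Cdc6 (ENSMUSG00000017499, chr11:98798507-98814766, plus strand), the ATPase that joins the origin recognition complex, was at 67.2, 38.2, and 69.2 CPM in TEff and at 22.5, 20.1, and 78.3 CPM in TRM-like samples. It spanned 3.91-fold from its lowest to its highest sample, more than any other of the 10 genes, and its log2 fold change was -0.53 (SE 0.49, edgeR adjusted p = 0.680). Cdt1 (ENSMUSG00000006585, chr8:123294703-123300293, plus strand), which brings the MCM ring to the origin, was at 48.9, 51.7, and 54.8 CPM in TEff and at 37.5, 39.6, and 54.1 CPM in TRM-like samples. It spanned only 1.46-fold, was highest in TEff replicate 3, and was not lowered in TEff replicate 2, the TEff sample with the lowest level of the other 9 genes. Its log2 fold change was -0.25 (SE 0.16, edgeR adjusted p = 0.554). Gmnn (ENSMUSG00000006715, chr13:24935812-24946084, minus strand), the inhibitor of Cdt1, was at 56.8, 37.2, and 58.0 CPM in TEff and at 29.5, 28.3, and 65.8 CPM in TRM-like samples. Its samples had the same order as those of Mcm5 over a smaller span, 2.32-fold, with a log2 fold change of -0.30 (SE 0.33, edgeR adjusted p = 0.739). Mcm10 (ENSMUSG00000026669, chr2:4994516-5017629, minus strand), which acts after loading and is not a subunit of the ring, was at 69.2, 41.9, and 76.4 CPM in TEff and at 27.6, 26.8, and 78.0 CPM in TRM-like samples. The highest TRM-like and TEff samples of Mcm10 lay close together, and its log2 fold change was -0.50 (SE 0.41, edgeR adjusted p = 0.638).

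**Figure D1:**
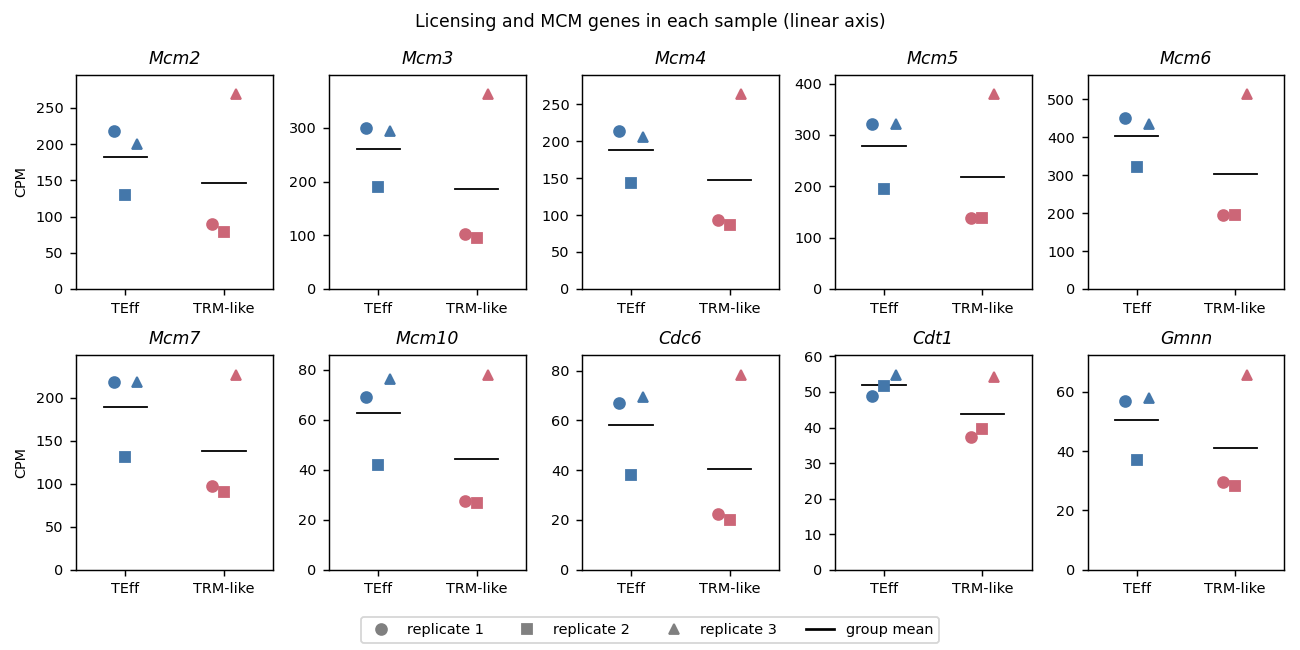
Level of each of the 10 genes in CPM (linear axis from 0) in the 3 TEff samples (blue) and the 3 TRM-like samples (red), with 1 symbol per replicate number and a bar at each group mean. TRM-like replicates 1 and 2 lie below every other sample in 10 of 10 panels, and TRM-like replicate 3 lies above every other sample in 9 of 10, Cdt1 being the exception.

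The group comparison asks whether licensing genes differed between cells expanded with IL-15 and TGF-β and cells expanded with IL-2 alone. A gene was called where its adjusted p was below 0.05 and its absolute log2 fold change above 0.58. With the 6 samples, edgeR called 0 of the 10 genes, against 3.01% of the 26154 genes tested in either direction and 1.48% lower in TRM-like. At an unadjusted p below 0.05 the count was also 0 of 10, against 14.8% of all genes, and DESeq2 and limma-voom called 0 of 10 as well, against 4.83 and 2.82% of all genes. The log2 fold changes lay between -0.53 and -0.25 with a median of -0.38, beside a median of 0.02 over all genes, and 10 of 10 were below 0, against 48.6% of all genes. The groups overlapped in 10 of the 10 genes, while they did not overlap in 20.3% of all genes and lay lower throughout in TRM-like in 9.71%. A fit with the replicate number as a block, a pairing that the labels do not give, called 3 of 10, against 7.78% of all genes. Under that block, 9 of 10 had an unadjusted p below 0.05, against 17.4%. Without a filter on counts, 0 of 10 were called and 7 of 10 had an unadjusted p below 0.05, against 13.4%. A fold change that misses the test does not show that the groups were alike. In bulk samples, fewer cycling cells and less RNA of these genes per cell cannot be told apart.

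The comparison turned on TRM-like replicate 3. Without this library, which leaves 2 TRM-like samples against 3, edgeR called 9 of the 10 genes lower in TRM-like, where 7.67% of the 25478 genes tested were called lower and 14% in either direction. The log2 fold changes then ran from -1.46 in Cdc6 (SE 0.21, adjusted p = 0.000355) and -1.41 in Mcm3 (SE 0.18, adjusted p = 0.000102) to -0.82 in Gmnn (SE 0.17, adjusted p = 0.00403). Levels of the 9 genes in TRM-like replicates 1 and 2 were thus 0.363 to 0.567 of the TEff level. Cdt1, at -0.44 (SE 0.11, adjusted p = 0.0123), had an adjusted p below 0.05 but missed the limit on the fold change. Both remaining TRM-like samples lay below every TEff sample in 10 of 10 genes, as they did in 23.4% of all genes. TRM-like replicate 3 stood apart in these same genes, and leaving it out lowered the SE, from 0.49 to 0.21 in Cdc6. The adjusted p without it therefore follow a choice guided by these data and cannot be read as evidence of a group difference. The label of TRM-like replicate 3 gives no reason to leave it out, and both values are therefore given. Its counts were nearer to TEff replicates 1 and 3 than to the other TRM-like samples. They were also farther from each TEff sample than the TEff samples were from each other. Whether the label of TRM-like replicate 3 is right was not tested, and each group value rests on that label. Leaving out any 1 of the other 5 samples gave 0 calls.

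**Figure D2:**
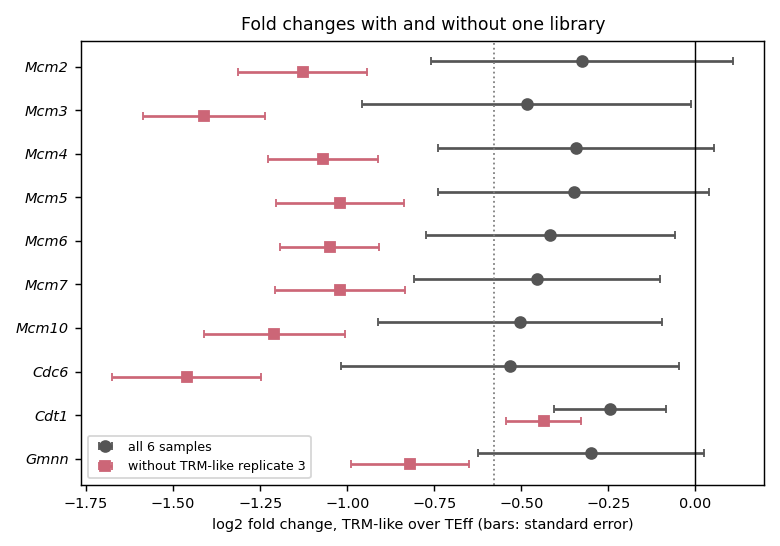
Log2 fold change of TRM-like over TEff for each gene, from edgeR with 6 samples (grey circles) and without TRM-like replicate 3 (red squares). Bars are standard errors and the dotted line marks -0.58. Every gene is below 0 in both fits, with medians of -0.38 and -1.06.

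The spread within the groups was itself uneven across the 10 genes. Among the 14822 genes that reached 10 counts in each library, the SD of log2 CPM over the 3 TRM-like samples had a median of 0.25. Cdc6 and Mcm3 had SDs of 1.09 and 1.08, at the percentiles 99.0 and 99.0 of these genes. The SD was 0.68 to 0.98 in Mcm2, Mcm4, Mcm5, Mcm6, Mcm7, Mcm10, and Gmnn, at percentiles between 92.9 and 98.4. Cdt1 had an SD of 0.29 at the percentile 55.8, close to the middle of all genes. TEff samples showed the same contrast on a smaller scale, with SDs of 0.27 to 0.48 in 9 genes and 0.08 in Cdt1, beside a median of 0.16. Over all genes, TRM-like replicate 3 was the highest of the 6 samples in 19.4%, and replicates 1 and 2 were lowest with replicate 3 highest in 7.46%, compared with 9 of the 10 genes here.

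**Figure D3:**
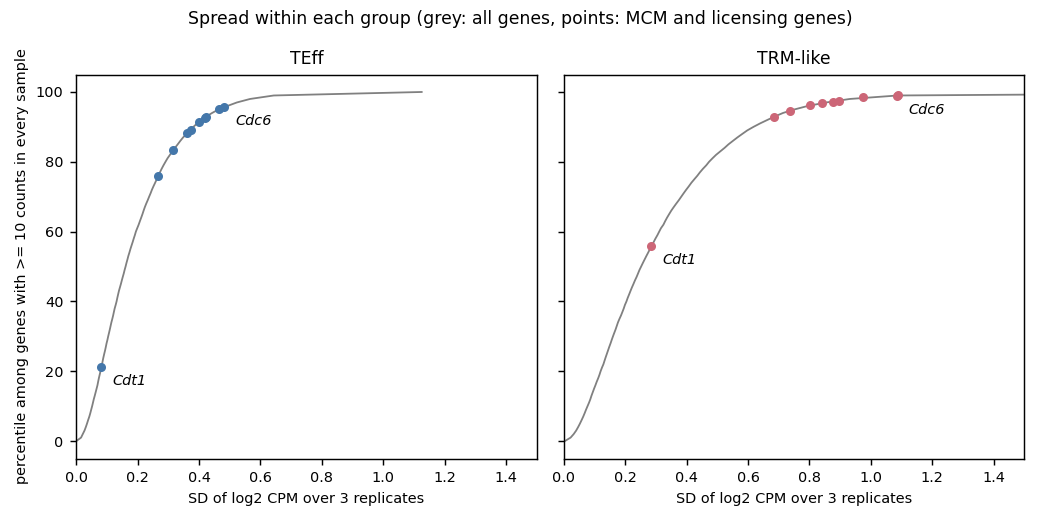
Percentile of the within-group SD of log2 CPM over 3 replicates, for TEff (left) and TRM-like samples (right), with the grey line for all 14822 genes and points for the 10 genes. The horizontal axis stops short of the most variable genes. Cdt1 sits at the percentiles 21.2 and 55.8, and the other 9 genes lie between 76.0 and 95.6 in TEff and between 92.9 and 99.0 in TRM-like samples.

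Levels of different genes were compared per kilobase of the deposited gene length, as CPM per kilobase. In TEff samples, Mcm6 stood at 92.1 ± 16.1 (SD, n = 3), Mcm3 at 86.2 ± 20.4, and Mcm5 at 80.6 ± 21.2. Mcm7 followed at 64.0 ± 16.9, Mcm2 at 54.2 ± 13.8, and Mcm4 at 52.2 ± 10.7. Gmnn stood at 42.6 ± 9.84, Cdt1 at 23.7 ± 1.35, Mcm10 at 12.6 ± 3.67, and Cdc6 at 12.2 ± 3.63. In these TEff means, the ring subunits stood above the inhibitor and the loading factors. In TRM-like samples the spread was wider, from 69.0 ± 41.9 for Mcm6 to 8.43 ± 6.89 for Cdc6, with Cdt1 at 20.0 ± 4.13. In the order of the means over the 6 samples, Mcm6 exceeded Mcm3 in 5 of 6 samples, Mcm3 exceeded Mcm5 in 4, Mcm7 exceeded Mcm2 in 5, Mcm2 exceeded Mcm4 in 4, and Mcm10 exceeded Cdc6 in 4, so that these neighbours in the order were not separated in every sample. Mcm5 exceeded Mcm7, Mcm4 exceeded Gmnn, Gmnn exceeded Cdt1, and Cdt1 exceeded Mcm10 in 6 of 6 samples. Mcm2, in contrast, was at 23.1 and Gmnn at 23.8 CPM per kilobase in TRM-like replicate 2. The most abundant ring subunit was 1.63 to 1.94 times the least abundant within a sample.

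Shares within a sample need no scaling between libraries, so each subunit was also expressed as a percent of the sum of Mcm2 to Mcm7 in counts per kilobase. Mcm3 took 20.1, 19.9, and 20.2% of the sum in TEff samples and 16.6, 16.2, and 20.8% in TRM-like samples, a difference of -2.23 percentage points (exact two-sided permutation p = 0.4, adjusted p = 0.8 over 6 subunits). TRM-like replicates 1 and 2 thus held the lowest shares and replicate 3 the highest. Mcm7 took 14.9, 14.1, and 15.4% in TEff and 16.2, 15.7, and 13.3% in TRM-like samples, the reverse order. The mean shares of Mcm2, Mcm4, Mcm5, Mcm6, and Mcm7 were 0.39, 0.40, 1.09, 0.11, and 0.24 percentage points higher in TRM-like than in TEff samples, with exact p of 0.7, 0.3, 0.2, 1.0, and 0.9 and adjusted p of 0.8 or 1. With 3 samples against 3 the smallest p this test can give is 0.1, so that it could not pass 0.05.

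**Figure D4:**
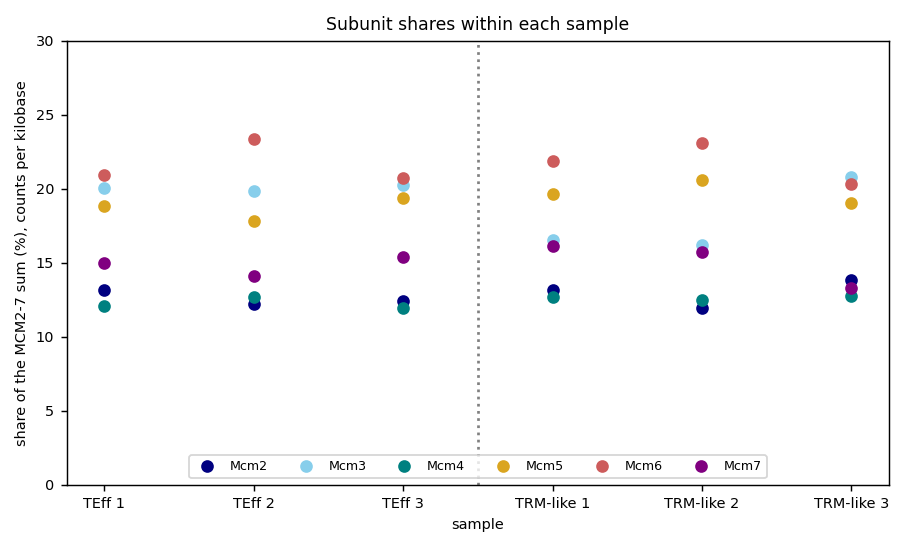
Share of each ring subunit in the sum of Mcm2 to Mcm7 (percent of counts per kilobase) in each of the 6 samples, with the dotted line between the TEff and TRM-like groups. Mcm3 lies at 16.6 and 16.2% in TRM-like replicates 1 and 2 and at 19.9 to 20.8% elsewhere.

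Cdt1 and its inhibitor were compared as the log2 ratio of Cdt1 to Gmnn in counts per kilobase. The ratio was -1.10, -0.40, and -0.96 in the TEff samples and -0.53, -0.40, and -1.16 in the TRM-like samples. Samples with low MCM levels, which were TEff replicate 2 and TRM-like replicates 1 and 2, had the higher ratios, and Gmnn exceeded Cdt1 in each sample. The mean ratio was -0.82 ± 0.37 (SD, n = 3) in TEff and -0.70 ± 0.41 in TRM-like samples, a difference of 0.12 (exact two-sided permutation p = 0.9). Set against the ring sum, Cdt1 was at 4.54, 7.49, and 5.21% in TEff and at 8.37, 9.33, and 4.28% in TRM-like samples. Cdc6, by contrast, kept between 2.16 and 3.01% of the ring sum and Mcm10 between 2.68 and 3.21% in the 6 samples.

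Outside the 10 genes, other parts of the pathway were examined as 10 lists holding 106 genes, of which 105 could be tested. With the 6 samples, edgeR called 0 of the 105, against 3.01% of all genes, DESeq2 and limma-voom called 0 as well, and 4 had an unadjusted edgeR p below 0.05, against 14.8% of all genes. A log2 fold change below 0 was found in 96 of the 105, against 48.6% of all genes. Without TRM-like replicate 3, 62 of 104 were called, 61 lower and 1 higher in TRM-like, where 7.67% of all genes were called lower and 6.38% higher, the shares against which the counts per list below are read. The limit given above for the fit without that library holds for these counts too. Genes with the smallest p in each list are given below.

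Among the 6 subunits of the origin recognition complex, the platform for loading, 0 were called with the 6 samples and 3 without TRM-like replicate 3. Orc1, the subunit that is regulated through the cycle, was at 15.5, 10.2, and 17.2 CPM in TEff and at 4.01, 3.67, and 17.6 CPM in TRM-like samples. Its log2 fold change was -0.77 (SE 0.54, edgeR adjusted p = 0.589) and -1.90 without TRM-like replicate 3. Orc4 was at 39.3, 39.3, and 38.5 CPM in TEff and at 43.0, 41.2, and 49.6 CPM in TRM-like samples, with no sample of TRM-like below TEff and an edgeR adjusted p of 0.553. Of 12 genes for helicase activation, which include the CDC45 and GINS partners of the ring, 12 had a log2 fold change below 0 and 8 were called without TRM-like replicate 3. Ticrr, needed for CDC45 loading, had a log2 fold change of -0.36 (SE 0.21, adjusted p = 0.496), and Gins4, a GINS subunit, of -0.27 (SE 0.17, adjusted p = 0.533).

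In the replication fork list of 27 genes, 23 had a log2 fold change below 0, and the 2 genes with the smallest p had the opposite sign. Without TRM-like replicate 3, 21 of the 27 were called, 20 lower and 1 higher in TRM-like. Rpa1, the large subunit of the single-strand binding protein RPA, was at 254, 203, and 246 CPM in TEff and at 308, 319, and 402 CPM in TRM-like samples. The TRM-like samples lay above every TEff sample, with a log2 fold change of 0.55 (SE 0.16) that did not pass the test (edgeR adjusted p = 0.131). DESeq2 gave 1 gene of this list an adjusted p below 0.05, the lowest being 0.0347, but its fold change missed the limit. Pold4, the small subunit of DNA polymerase delta, was at 17.5, 19.3, and 17.3 CPM in TEff and at 35.6, 40.8, and 14.0 CPM in TRM-like samples. Here TRM-like replicate 3 was the lowest of the 6, and Pold4 was the gene called higher without it (log2 fold change 1.07). Of 6 genes for other MCM family members and their partners, 2 were called without TRM-like replicate 3, and Hrob, a partner of the MCM8 and MCM9 helicase, and Mcm9 had log2 fold changes of -0.49 (SE 0.27) and -0.16 (SE 0.12) with edgeR adjusted p of 0.465 and 0.589. The geminin relatives Mcidas and Gmnc, known from multiciliated cells, had 0 or 1 count per sample.

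The 12 genes of Cdt1 and Cdc6 turnover, 10 of ubiquitin ligases and the deubiquitinases Otud7b and Usp37, were below 0 in 12 of 12, with 3 called without TRM-like replicate 3. Fzr1, which activates the APC/C ligase that targets geminin and Cdc6, was at 99.5, 83.1, and 93.5 CPM in TEff and at 71.8, 69.5, and 74.7 CPM in TRM-like samples. Its groups did not overlap and its log2 fold change was -0.35 (SE 0.13, edgeR adjusted p = 0.226). Cul4b, a scaffold of the CRL4 ligases, had a log2 fold change of -0.40 (SE 0.16, adjusted p = 0.277). Of the 13 E2F factors and pocket proteins, 10 were below 0 and 5 were called without TRM-like replicate 3. E2f2, an activating E2F, was at 139, 126, and 137 CPM in TEff and at 61.2, 59.2, and 113 CPM in TRM-like samples. TRM-like replicate 3 was here the nearest to TEff but still below it, and the log2 fold change was -0.78 (SE 0.24, edgeR adjusted p = 0.159). E2f8, an atypical repressor, was at 28.3, 24.1, and 27.9 CPM in TEff and at 14.0, 11.2, and 29.0 CPM in TRM-like samples.

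The lists for S phase cyclins and kinases, nucleotide supply, and mitosis were below 0 in 6 of 6, 6 of 6, and 16 of 16 genes, and 3, 6, and 11 were called lower without TRM-like replicate 3. Cdk2 and Ccne1, the kinase and cyclin of S phase entry, had log2 fold changes of -0.53 (SE 0.30) and -0.30 (SE 0.21) with edgeR adjusted p of 0.487 and 0.579. Tk1, an enzyme of thymidine salvage, had a log2 fold change of -0.44 (SE 0.29) with an edgeR adjusted p of 0.558. Mki67, the proliferation marker Ki-67, was at 1861, 1407, and 1866 CPM in TEff and at 923, 814, and 1911 CPM in TRM-like samples, with a log2 fold change of -0.49 (SE 0.31, edgeR adjusted p = 0.536). The samples of Mki67 had the same order as those of Mcm5, and Aurkb, a mitotic kinase, had a log2 fold change of -0.35 (SE 0.25, edgeR adjusted p = 0.58). As a mean over each list, the log2 CPM of the 10 licensing genes stood 0.99 and 1.06 below the TEff mean in TRM-like replicates 1 and 2 and 0.41 above it in replicate 3. The corresponding values were -0.57, -0.66, and 0.29 for the mitosis list and -0.35, -0.42, and 0.08 for the list of Cdt1 and Cdc6 turnover.

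**Figure D5:**
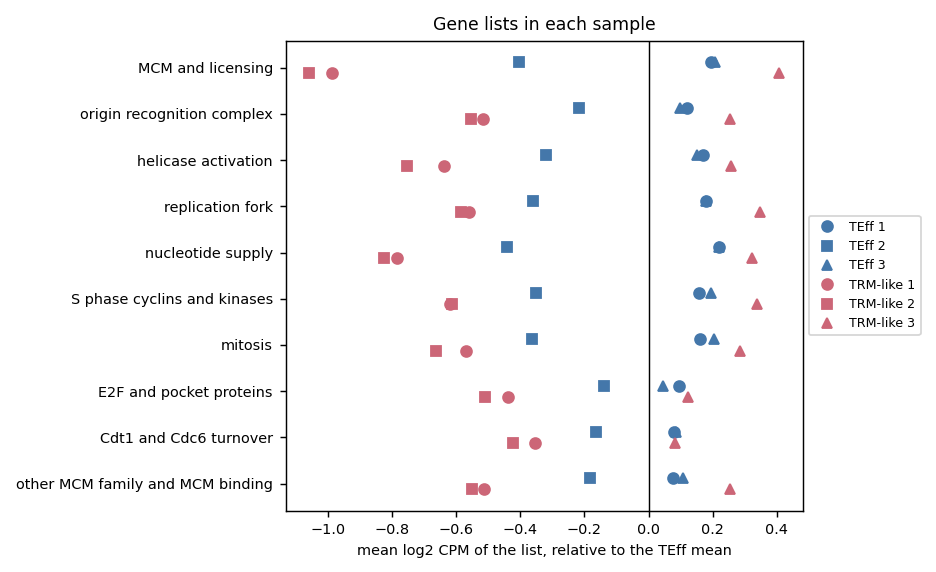
Mean log2 CPM of each gene list relative to its mean in the TEff samples, with 1 symbol per sample (blue TEff, red TRM-like). The MCM and licensing list spans -1.06 to 0.41, the widest range of the lists drawn, and TRM-like replicates 1 and 2 are lowest in each list drawn. The geminin relatives, with 0 or 1 count per sample, are left out.

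The genes most like the mean log2 CPM of Mcm2 to Mcm7 over the 6 samples, by Pearson correlation among these 14822 genes, were Mthfd1l, Ercc6l, Chek1, Ppp1cc, and Nup205, each at 0.999. The 6 points share libraries and depth, and 1297 of the 14822 genes exceeded 0.95, so that such a value was common. Of the 4 members outside the ring, Cdc6, Gmnn, and Mcm10 had correlations of 0.998, 0.993, and 0.992, and Cdt1 had 0.890 and the rank 2277. Mthfd1l, a mitochondrial folate enzyme, was at 139, 89.8, and 134 CPM in TEff and at 58.9, 57.4, and 156 CPM in TRM-like samples.

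Neighbouring genes on the opposite strand were examined because they share start regions or reads with members. Prkdc (chr16:15455698-15660099, plus strand), which encodes the catalytic subunit of the DNA-dependent protein kinase, runs away from Mcm4, with 489 bases between the canonical starts of both genes. It was at 85.1, 89.0, and 81.2 CPM in TEff and at 87.3, 76.0, and 95.5 CPM in TRM-like samples. The groups overlapped and the log2 fold change was 0.02 (SE 0.13, edgeR adjusted p = 0.967), or -0.07 without TRM-like replicate 3, where Mcm4 was at -1.07. The difference between the neighbours was not tested. Mcm7 overlaps Cops6 by 475 bases and Ap4m1 by 448 bases on the opposite strand. Cops6 was at 27.1 to 37.7 CPM and Ap4m1 at 11.6 to 14.8 CPM over the 6 samples, below the lowest Mcm7 level of 90.4 CPM. The libraries were stranded but the strand setting of the counting is not given in the sources used here, so reads in these overlaps, and in the 573 bases that Gmnn shares with the non-coding Gm56584, cannot be assigned with certainty. The microRNA genes Mir25, Mir93, and Mir106b, which lie within Mcm7, held 4 to 38 counts per sample.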

How the data were processed

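Stranded total RNA libraries of OT-I CD8+ T cells (3 TEff and 3 TRM-like samples, day 6) were sequenced. The authors trimmed reads with cutadapt 4.8 (per the submitters' processing notes), used Rsubread to map them to GRCm39 and to count them on GENCODE genes, and deposited these raw counts with gene lengths. The values were not normalized. The study's methods remove a batch effect without naming the batch, and none was removed here. The strand setting is not given in the sources used here. Symbols and positions were taken from a more recent GENCODE release for that build, which held 56620 of the 57126 genes and lacked 506.

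Differential expression was tested with edgeR 4.0.16 (TMM, quasi-likelihood test) in R 4.3.3 on 26154 genes (1 or more counts in 3 or more samples), with Benjamini-Hochberg adjustment. SE is the log2 fold change divided by the square root of F. Shares and ratios were tested with exact permutation tests (scipy 1.17.1). The members, pathway lists, marker lists, and motifs were chosen with earlier results of these data known. Genes named are the members, the 2 with the smallest p of each list and any called, the 5 most correlated with the ring mean, and protein-coding genes starting within 1000 bases on the opposite strand; Cops6, Ap4m1, Gm56584, and the microRNA genes were added as overlapping genes, and some genes that the rule selects are not reported here. Alternatives were DESeq2 1.42.0, limma-voom (limma 3.58.1), other scalings and filters, a replicate block, and each sample left out. Totals were 18319013 to 23622621 counts per sample.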

Additional observations from a re-analysis of the deposited data

How the results depend on the processing

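Every one of the 140 recomputed log2 fold changes of single members (14 alternatives for each of 10 genes) stayed below 0. The number of members called was 0 under each other scaling, filter, and tool, 3 under the replicate block, where 4.13% of all genes were called lower (Mcm3 at -0.75, Mcm10 at -0.64, and Cdc6 at -0.77), and 0 to 9 when single samples were left out, the 9 coming from the omission of TRM-like replicate 3. Their median log2 fold change ran from -1.06 without TRM-like replicate 3 to -0.16 without TRM-like replicate 1. For the pathway lists, 3 genes were called without a filter, where 4.42% of all genes were, 11 under the replicate block, where 7.78% were, and 0 to 62 with single samples left out. Same-numbered samples deviated together for numbers 2 and 3 but not for number 1 (correlations of -0.29, 0.31, and 0.39 for numbers 1, 2, and 3, and 0.52 between TEff replicate 2 and TRM-like replicate 1), so the number was not taken as a pairing, and no sample was paired in the values above. In both the block and the unfiltered fit the causes were not tested. Leaving out single samples moved the difference in share between -0.052 and 0.91 percentage points for Mcm2, -0.56 and 0.94 for Mcm6, and -0.31 and 1.13 for Mcm7, and the log2 ratio of Cdt1 to Gmnn between -0.028 and 0.36, so that these signs rest on single samples, while the shares of Mcm3, Mcm4, and Mcm5 kept theirs. Mcidas and Gmnc held only 0 or 1 count per sample, and whether depth was the reason was not tested. No member fell below 459 counts in a sample.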
